A study of Mus musculus with 9 samples.

Results

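Insulin-like growth factors and the proteins that bind them were examined in RNA of the mouse piriform cortex, the primary olfactory cortex. They were represented by 10 genes of the 33958 annotated genes in the count files. They comprise the ligands Igf1 and Igf2, the receptors Igf1r and Igf2r, and the binding proteins Igfbp2, Igfbp3, Igfbp4, Igfbp5, Igfbp6 and Igfbp7. The genes were taken by symbol, and the transcript that represents each was chosen by its mean count over the 9 samples, the highest being taken, which did not use the layers. The list was proposed with earlier results of these data known, so that the tests below describe each gene within the fit of all transcripts and are not independent support for the family.

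Tissue was cut with a laser from coronal sections of wild-type C57BL/6 mice, aged 8 weeks by the labels, while the methods state another age. The samples fall into layer A, layer B and layer C, with 3 replicates of each, and all groups share the same genotype and received no treatment. No key links these letters to layers I, II and III. Neither do the labels say whether replicates came from separate animals, so p-values measure the spread between these samples, which may be technical. RNA was amplified before sequencing, and reads carried no molecular identifiers. Each captured layer is a mixture of cell types, and in such samples fewer cells of a type and less RNA per cell cannot be told apart.

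IGF1 and IGF2 are small secreted proteins related to insulin, and both signal mainly through the tyrosine kinase receptor IGF1R. IGF2R, the cation-independent mannose 6-phosphate receptor, takes up IGF2 and carries it to lysosomes. The binding proteins hold the ligands in the extracellular fluid and can limit or prolong their action, and proteases release the ligands by cutting them. In the adult mouse brain, Igf2 expression is known mainly from the meninges, the choroid plexus and vessels.

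Total counts ranged from 23104306 to 76471683 per sample. Mitochondrial ribosomal RNAs made up 55.3 to 70.2% of the layer A counts, 12.8 to 28.1% of those of layer B and 20.5 to 57.1% of those of layer C. Counts without mitochondrial transcripts were 6929782 to 19051783 in layer A, 22117880 to 30912343 for layer B and 9477078 to 60245059 for layer C. Levels are given as CPM, the count of a transcript relative to its library size after TMM scaling, on which scale 3 counts correspond to 0.0256 to 0.254 CPM. Layer B replicate 3 stood apart. The correlation of its log2 CPM with layer B replicates 1 and 2 was 0.913 and 0.904, against 0.987 between those replicates. Its correlation with layer C replicates 1, 2 and 3 was higher, at 0.935, 0.921 and 0.945, and the reason was not tested. Layer A replicates correlated with each other at 0.933 to 0.940. For 4007 genes, the count of a shorter-ended transcript, ending at least 1000 bases before the most abundant one, was divided by the count of the latter. The median ratio was 0.177 in layer B replicate 3 and 0.274 to 0.34 in the other libraries. For the 10 genes, fold changes between layers A and B that moved by more than 1.5 times without this library, and calls that changed, are given with and without it.

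The 250 bases upstream of the RefSeq start are shown for the 3 genes that differed between layers, as reference sequence of their annotated starts. The Igf2 transcript tested begins at the edge of its window, the Igfbp2 transcript 23 bases downstream, and the Igfbp5 transcript 19 bases inside. Other Igf2 transcripts begin elsewhere. They are from assembly GRCm38.p6 (the build also called mm10), 5′ to 3′ on the strand of the gene. Capitals mark matches, on either strand, to the TATA box TATAAA, the CCAAT box CCAAT and the GC box GGGCGG. The Igf2 window is chr7:142657497-142657746 on the minus strand, the Igfbp2 window is chr1:72824230-72824479 on the plus strand and the Igfbp5 window is chr1:72874866-72875115 on the minus strand.
Igf2: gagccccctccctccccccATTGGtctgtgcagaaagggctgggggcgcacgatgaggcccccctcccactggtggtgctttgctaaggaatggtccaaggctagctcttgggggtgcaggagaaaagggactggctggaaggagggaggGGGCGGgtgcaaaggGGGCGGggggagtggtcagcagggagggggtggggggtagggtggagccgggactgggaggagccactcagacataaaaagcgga
Igfbp2: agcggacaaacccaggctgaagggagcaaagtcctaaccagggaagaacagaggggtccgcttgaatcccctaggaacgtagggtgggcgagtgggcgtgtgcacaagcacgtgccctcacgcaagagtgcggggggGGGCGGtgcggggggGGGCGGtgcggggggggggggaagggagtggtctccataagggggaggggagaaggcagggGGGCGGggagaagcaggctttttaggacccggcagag
Igfbp5: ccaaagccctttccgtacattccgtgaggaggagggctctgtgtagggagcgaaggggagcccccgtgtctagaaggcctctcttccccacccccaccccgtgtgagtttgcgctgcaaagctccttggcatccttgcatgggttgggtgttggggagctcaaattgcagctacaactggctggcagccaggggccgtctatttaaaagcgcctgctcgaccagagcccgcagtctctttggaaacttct

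The Igf2 window held 2 GC boxes and 1 CCAAT box on the opposite strand, and its GC content was 66.0%. The Igfbp2 window held 3 GC boxes at a GC content of 67.2%. No match to the 3 motifs was present in the Igfbp5 window, whose GC content was 58.8%. Of 32851 windows of the same length, 32.7% held a GC box, 33.8% a CCAAT box and 12.4% a TATA box, and the median GC content was 52.4%. Igf2 has 4 RefSeq starts and Igfbp2 has 2, and 1 window of each is shown.

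The ligand Igf2 showed the widest difference between layers of the 10 genes. Its transcript ENSMUST00000000033 lies at chr7:142650766-142657496 on the minus strand. In layer A it was measured at 53.4, 38.5 and 78.8 CPM in replicates 1, 2 and 3. The layer B values were 0.854, 0.67 and 3.89 CPM. In layer C they were 2.11, 3.32 and 3.20 CPM. Every layer A sample lay above every sample of the other layers, while layers B and C overlapped.

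Mean Igf2 in layers A, B and C was 56.9 ± 20.4, 1.8 ± 1.81 and 2.88 ± 0.666 CPM (SD, n = 3 each). In the quasi-likelihood fit of edgeR, with p-values adjusted by Benjamini-Hochberg for all 56416 transcripts, layer A exceeded layer B by a log2 fold change of 4.97 ± 0.606 (SE), with an adjusted p of 0.000208. Layer A exceeded layer C by 4.31 ± 0.588 on the log2 scale, with an edgeR adjusted p of 0.00157. Without layer B replicate 3, the first of these was 6.27. All 7 tested transcripts of Igf2 passed the threshold in both comparisons, but they share exons, and the counts of the 3 most abundant differed by at most 11 in any library. The annotated model Gm49394 overlaps 3596 bases of this transcript on the same strand and was not analysed here.

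The other ligand, Igf1, which microglia, vessels and some neurons are known to express, differed far less. Its transcript ENSMUST00000095360 was measured at 16.2, 11.7 and 10.2 CPM in layer A. Layer B gave 10.7, 7.04 and 12.5 CPM, and layer C gave 6.09, 9.50 and 6.01 CPM. Layer A overlapped layer B but lay wholly above layer C. The log2 fold change of layer A over layer C was 0.82 ± 0.351 (SE), with an adjusted p of 0.158 by edgeR, and none of its 8 tested transcripts passed the threshold in any pair of layers.

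The mean level of Igf1r was highest and that of Igf2r lowest in layer A, and neither receptor passed the test. Igf1r, the signalling receptor, was measured at 10.2, 15.8 and 15.1 CPM in layer A. Its layer B values were 8.69, 11.4 and 4.06 CPM, and layer C gave 6.67, 7.85 and 7.84 CPM. All layer A samples exceeded all layer C samples, while layers A and B overlapped. Its log2 fold change was 0.77 (95% interval -0.03 to 1.58) for layer A over B and 0.88 (0.08 to 1.69) for layer A over C, with edgeR adjusted p of 0.19 and 0.161. Without layer B replicate 3, which is in neither layer A nor C, the edgeR adjusted p between those layers was 0.0409 at a log2 fold change of 0.89.

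Igf2r, which clears IGF2, was measured at 7.20, 5.34 and 6.31 CPM in layer A. Layer B gave 10.3, 11.6 and 9.55 CPM, and layer C gave 9.30, 9.95 and 8.76 CPM. It was the only one of the 10 genes for which every layer A sample lay below every sample of both other layers. The log2 fold change of layer A was -0.74 (95% interval -1.39 to -0.09) against layer B and -0.57 (-1.22 to 0.08) against layer C. The edgeR adjusted p was 0.118 and 0.276. Airn, an antisense transcript of the Igf2r locus, could not be separated by strand, but its most abundant transcript was low, at 1.86, 0.0668 and 0.249 CPM in layer A, with the mean carried by replicate 1, and at 0.0208 to 0.255 CPM in the other layers.

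Igfbp5, a binding protein with affinity for the extracellular matrix, had the highest mean CPM of the family in each layer. Its transcript ENSMUST00000027377 (chr1:72857932-72874884, minus strand) was measured at 159.1, 117.1 and 107.4 CPM in layer A. Layer B held 35.7, 31.4 and 15.2 CPM, and layer C 27.2, 22.3 and 25.1 CPM. The layer A samples lay wholly above the others. Layer A exceeded layer B by 2.22 ± 0.341 (SE) on the log2 scale and layer C by 2.36 ± 0.343, with edgeR adjusted p of 0.000666 and 0.00188. Both of its transcripts passed in both comparisons.

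Igfbp2, which binds IGF2 with high affinity and is known from astrocytes and meninges, is the neighbour of Igfbp5 on chromosome 1. Its transcript ENSMUST00000047328 (chr1:72824503-72852474, plus strand) ends 5457 bases before the converging Igfbp5 transcript. It was measured at 3.73, 5.74 and 12.1 CPM in layer A. Layer B gave 1.26, 1.27 and 3.48 CPM, and layer C gave 1.5, 0.574 and 2.52 CPM. Layer A did not overlap either other layer, although its lowest value was close to the highest of layer B.

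Layer A exceeded layer B for Igfbp2 by 1.86 ± 0.582 (SE) on the log2 scale, and layer C by 2.19 ± 0.59. The edgeR adjusted p was 0.0397 and 0.0263, nearer to the threshold than those of Igf2 and Igfbp5. Without layer B replicate 3 the log2 fold change over layer B was 2.58 with an adjusted p of 0.00525, and without layer A replicate 3 it was 1.26. Between layers A and B the adjusted p was 0.064 without layer A replicate 2, 0.199 without layer A replicate 3, 0.124 without layer B replicate 1, 0.114 without layer B replicate 2 and 0.0556 without layer C replicate 1. Between layers A and C it was 0.053 without layer A replicate 2, 0.131 without layer A replicate 3, 0.118 without layer C replicate 1 and 0.0912 without layer C replicate 2. Of the 9 fits that left out 1 library, Igfbp2 passed in 4 between layers A and B and in 5 between layers A and C. Igf2 and Igfbp5 passed in all 9 in both comparisons.

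**Figure D1:**
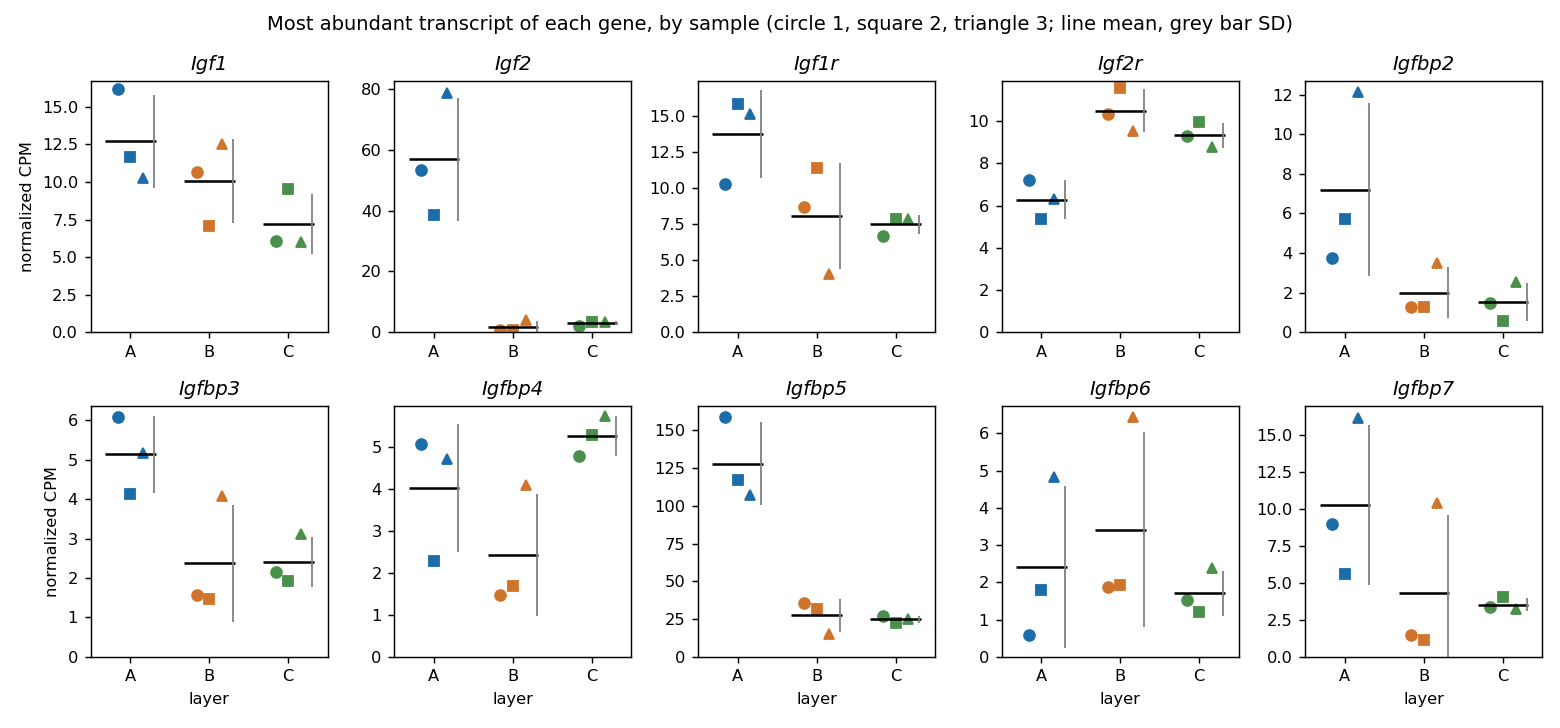
Normalized CPM (vertical axes, each from 0) of the most abundant transcript of each of the 10 genes in layers A, B and C; points are samples, black lines means and grey bars SD, cut at 0. Igf2, Igfbp2 and Igfbp5 stand higher in layer A. Layer B replicate 3 (triangle) lies above replicates 1 and 2 for Igf1, Igf2, Igfbp2, Igfbp3, Igfbp4, Igfbp6 and Igfbp7 and below them for Igf1r, Igf2r and Igfbp5.

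Igfbp3, the main carrier of IGFs in blood, was measured at 6.10, 4.14 and 5.16 CPM in layer A. Layer B gave 1.57, 1.45 and 4.08 CPM, and layer C gave 2.16, 1.91 and 3.12 CPM. The layer A samples lay above all others, but layer B replicate 3 came close to the lowest of them. The log2 fold change was 1.11 ± 0.452 (SE) over layer B and 1.08 ± 0.453 over layer C, with edgeR adjusted p of 0.112 and 0.15. Without layer B replicate 3 these became 1.81 with an adjusted p of 0.00481 and 1.08 with an adjusted p of 0.0397.

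Igfbp7, a secreted protein of vessels with low affinity for IGFs, was measured at 8.98, 5.61 and 16.2 CPM in layer A. Layer B gave 1.46, 1.15 and 10.4 CPM, and layer C gave 3.36, 4.02 and 3.22 CPM. Layer A lay above layer C throughout and overlapped layer B through layer B replicate 3 alone. The log2 fold change was 1.25 ± 0.659 (SE) over layer B and 1.55 ± 0.669 over layer C, with edgeR adjusted p of 0.232 and 0.162. Without layer B replicate 3 they were 3.03 and 1.56, with adjusted p of 0.000331 and 0.0084. The exons of this transcript overlap those of Polr2b on the opposite strand by 77 bases, and the libraries did not keep strand.

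Igfbp4, a binding protein cut by the protease PAPP-A, was measured at 5.08, 2.27 and 4.71 CPM in layer A. Layer B gave 1.48, 1.69 and 4.10 CPM, and layer C gave 4.78, 5.29 and 5.73 CPM. It was the only gene of the 10 with every layer C sample above every layer B sample, which held for 4.67% of all tested transcripts. None of the 10 had every layer B sample above every layer C sample, against 3.92% of all tested. The log2 fold change of layer B over layer C was -1.12 (95% interval -2.08 to -0.16), with an unadjusted p of 0.0253 and an adjusted p of 1.0 by edgeR. Between layers A and B it was 0.73 with an adjusted p of 0.317, and 1.4 with an adjusted p of 0.0232 without layer B replicate 3.

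Igfbp6, which prefers IGF2 over IGF1, passed the test in no comparison. It was measured at 0.593, 1.8 and 4.84 CPM in layer A. Layer B gave 1.86, 1.94 and 6.43 CPM, and layer C gave 1.52, 1.21 and 2.38 CPM. All layers overlapped. The log2 fold change of layer A over B was -0.45 (95% interval -1.8 to 0.91), and it was 0.46 without layer B replicate 3.

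Of the 10 genes, 3 had higher levels in layer A when set against layer B, compared with 10.7% of all 56416 tested transcripts. The same number was higher in layer A than in layer C, against 6.98% of all tested, and in both comparisons these were Igf2, Igfbp2 and Igfbp5. The comparisons share the layer A samples. None was lower in layer A, where 5.83% and 4.35% of all tested transcripts were higher in layers B and C. Those shares count all isoforms, while each gene here is its most abundant transcript. Fitted with 1 such transcript per gene, 3098 of 22273 were higher in layer A against layer B and 2261 against layer C. Lower in layer A were 1912 and 1491, and the same 3 genes passed in both comparisons. Without layer B replicate 3, 6 of the 10 were higher in layer A against layer B and 6 against layer C, where the shares of all tested transcripts were also larger, at 13.1% and 10.4%. That library is in neither layer A nor C, but the layers share the same estimate of the spread. The log2 fold change of layer A over C went from 0.88 to 0.89 for Igf1r, stayed at 1.08 for Igfbp3 and went from 1.55 to 1.56 for Igfbp7. With only the samples of layers A and C fitted, the edgeR adjusted p was 0.068 for Igf1r, 0.0657 for Igfbp3 and 0.0147 for Igfbp7.

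No gene of the family passed between layers B and C, where edgeR called 0 of all tested transcripts (0.0%). At an unadjusted edgeR p under 0.05, 2316 of all 56416 tested transcripts passed there, Igfbp4 among them, which is a share below that same 0.05. DESeq2 called 124 transcripts and 0 of the family. Without layer B replicate 3, edgeR called 17 of 55684 tested transcripts between layers B and C and no gene of the family. The median log2 fold change of the 10 genes was 0.94 for layer A over B, 0.98 for layer A over C and 0.16 for layer B over C, against -0.12, -0.01 and 0.07 over all tested transcripts. Every layer A sample exceeded every layer B sample for 4 of the 10 genes and every layer C sample for 7, against 17.2% and 17.0% of all tested. For Igf2r the order was the reverse in both, as for 15.1% and 14.5% of all tested.

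**Figure D2:**
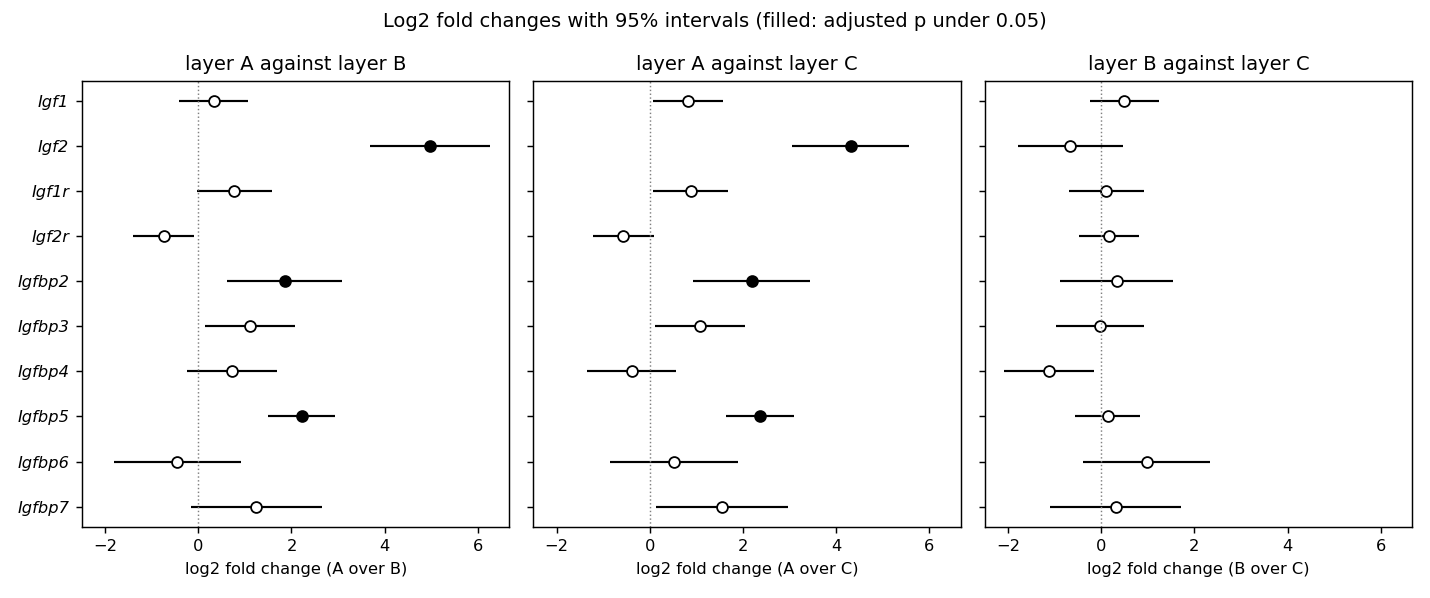
Log2 fold change (horizontal axes) of each gene between pairs of layers, with its 95% interval from the edgeR fit of 9 samples; filled points have an adjusted p under 0.05. Igf2, Igfbp2 and Igfbp5 are filled in both comparisons of layer A, and no point is filled between layers B and C.

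**Figure D3:**
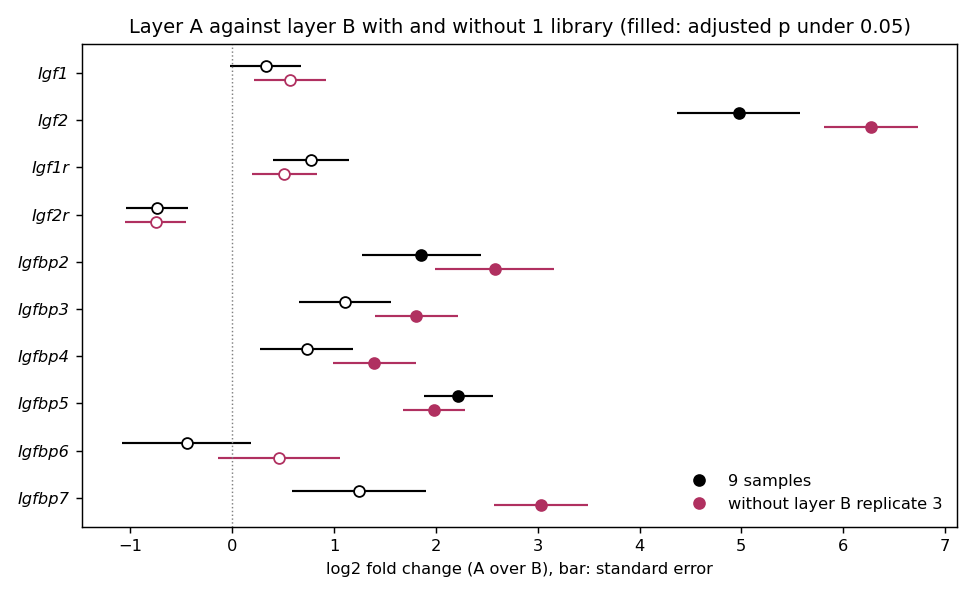
Log2 fold change of layer A over layer B (horizontal axis) with its standard error, in the fit of 9 samples (black) and without layer B replicate 3 (red); filled points have an adjusted p under 0.05. Igfbp3, Igfbp4 and Igfbp7 are filled in the second fit only, and Igfbp6 changes sign.

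Levels of different genes were compared per kilobase of transcript. In layer A, Igfbp5 was at 21.3 ± 4.57 and Igf2 at 15.4 ± 5.50 CPM per kilobase (SD, n = 3). Igfbp7 followed at 8.55 ± 4.51 and Igfbp2 at 5.51 ± 3.35 CPM per kilobase. The other 6 genes averaged 0.707 to 2.17 CPM per kilobase, Igf2r being the lowest. The ranges of mean ± SD of neighbours in this order overlapped throughout.

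In layer B, Igfbp5 was again first at 4.57 ± 1.81 CPM per kilobase and Igf2 was last at 0.487 ± 0.488 CPM per kilobase. Neighbours in this order overlapped within their SD as well. In layer C, Igfbp5 at 4.14 ± 0.404, Igfbp7 at 2.94 ± 0.355 and Igfbp6 at 1.53 ± 0.547 CPM per kilobase were separated by more than their SD, and the genes below them were not. By these means Igf2 stood next to the top in layer A and last in layer B.

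**Figure D4:**
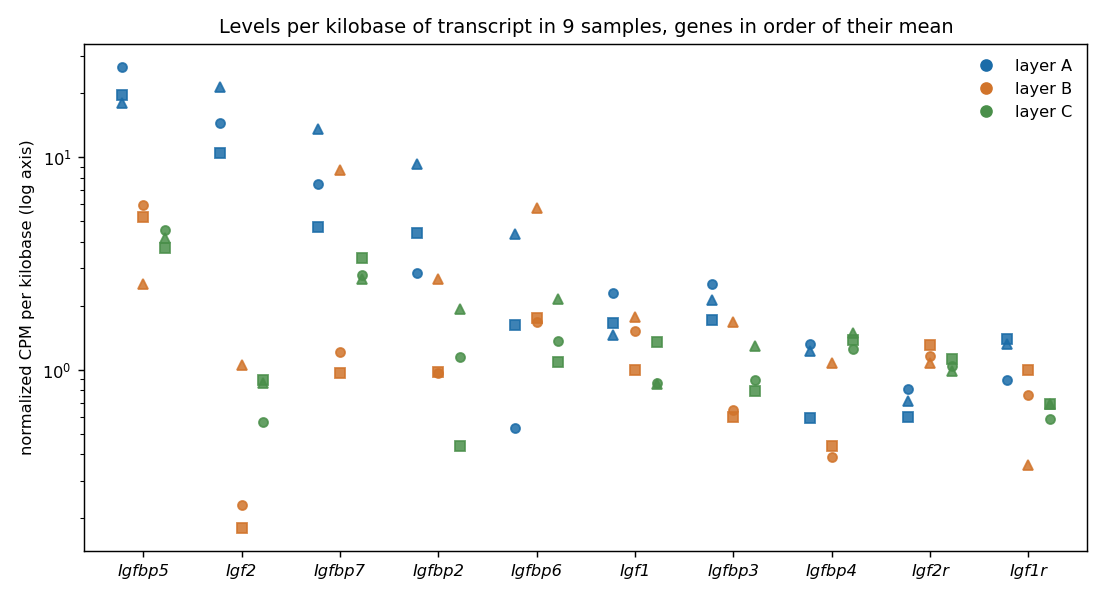
Normalized CPM per kilobase of transcript (vertical log axis) of the 10 genes in 9 samples, ordered by their mean; colours are layers, and circles, squares and triangles are replicates 1, 2 and 3. By layer means, Igfbp5 is the highest in each layer and Igf2 is next to it in layer A and lowest in layer B. Single samples differ, with Igf2 above Igfbp5 in layer A replicate 3 and Igfbp7, Igfbp6 and Igfbp2 above Igfbp5 in layer B replicate 3.

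Among other genes of the pathway, 6 proteases and inhibitors that act on binding proteins or their proteases were tested. Of these, 2 were higher in layer A against each other layer, 1 was lower against layer C, and 3 passed in no pair. For this list and those below, 10.7% and 6.98% of all tested transcripts, minor isoforms included, were higher in layer A against layers B and C. The shares lower in layer A were 5.83% and 4.35%. Htra1, a secreted serine protease that cuts binding proteins, averaged 48.2 ± 8.08, 7.86 ± 6.80 and 9.18 ± 6.22 CPM in layers A, B and C (SD, n = 3), with edgeR adjusted p of 0.00571 and 0.0149. Its log2 fold change over layer B was 2.62, and 3.66 without layer B replicate 3; against layer C the adjusted p was 0.0879 without layer C replicate 1 and 0.0591 without layer C replicate 2. Htra3, a related protease, averaged 1.33, 0.337 and 0.237 CPM, with adjusted p of 0.0387 and 0.0246. The first call was lost without layer A replicate 2 or 3, layer B replicate 1 or 2 or layer C replicate 1 (adjusted p 0.0531 to 0.152), the second without layer A replicate 2 or 3 or any layer C replicate (0.0583 to 0.101). Pappa2, a protease of IGFBP5 and IGFBP3, was lower in layer A, at 0.169, 0.134 and 1.9 CPM, against 11, 15.1 and 15.3 CPM in layer C (log2 fold change -4.01, edgeR adjusted p of 0.00692), and also passed against layer B without layer A replicate 3 (-3.88, adjusted p of 0.0138). The inhibitor Stc1 averaged 1.24, 3.86 and 4.17 CPM and did not pass, but did against layer C without layer C replicate 3 (adjusted p of 0.0335 by edgeR).

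Of 10 further carriers and proteins of related domain structure, 5 were tested. Ccn1, a matrix-associated protein, was higher in layer A at 3.27 ± 0.101 CPM, against 0.457 ± 0.214 and 0.806 ± 0.273 CPM in layers B and C (edgeR adjusted p of 0.00186 and 0.0177). The second was 0.0551 without layer A replicate 1 and 0.111 without layer C replicate 1. Ccn3, of the same family, was lower in layer A at 15.5 ± 8.87 CPM, against 63.2 ± 39.1 and 66.2 ± 16.5 (adjusted p of 0.00666 and 0.00989 by edgeR). Its log2 fold change against layer B was -2.02, and -1.33 without layer B replicate 3, with an adjusted p of 0.0188. Against layer C the adjusted p was 0.0555 without layer A replicate 1 and 0.0535 without layer A replicate 2. Ccn4 was lower in layer A when compared with layer B, with an edgeR adjusted p of 0.0489, and kept that call only in the fit without layer A replicate 3 among those without 1 library (0.0518 to 0.156 in the others). In that fit it was also lower against layer C (adjusted p of 0.0411 by edgeR). Ccn2 averaged 5.20, 1.85 and 5.16 CPM in layers A, B and C and did not pass, but did against layer C without layer C replicate 3 (log2 fold change 2.65, adjusted p 0.0397). Igfbp1 had at most 1 count in any sample, as did Igfals, the acid-labile subunit of the circulating complex.

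Insr, the insulin receptor and the closest relative of Igf1r, averaged 34.6 ± 4.10, 26.0 ± 3.40 and 23.9 ± 3.87 CPM in layers A, B and C and did not pass (edgeR adjusted p of 0.357 and 0.256). It was the only tested gene of 7 in the insulin and relaxin group. Of 3 proteins that bind Igf2 mRNA, Igf2bp2 and Igf2bp3 were tested and neither passed. H19, the imprinted neighbour of Igf2, had 1 count in all samples together.

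Of 14 tested adaptors downstream of the receptors, 2 were higher and 1 was lower in layer A relative to layer B, against 10.7% and 5.83% of all tested transcripts. Gab1, a docking protein, averaged 26.7 ± 10.8, 5.41 ± 0.596 and 7.05 ± 1.58 CPM in layers A, B and C, with edgeR adjusted p of 0.00072 and 0.00463. Shc3, a neuronal adaptor, averaged 15.7, 4.89 and 8.33 CPM and passed against layer B (edgeR adjusted p of 0.00323), and also against layer C without layer B replicate 3 (0.0302). Shc2, a related adaptor, was lower in layer A at 4.03 CPM against 8.40 CPM in layer B (edgeR adjusted p of 0.0493), a call kept only without layer A replicate 3 or layer B replicate 3 (0.0537 to 0.173 in the other fits without 1 library). Shc1 averaged 0.766, 0.3 and 0.149 CPM in layers A, B and C and did not pass, but did against layer C without layer B replicate 3 (edgeR adjusted p of 0.0249).

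Of 23 genes of PI3K, AKT and mTOR signalling, all tested, Foxo1 alone passed, where 10.7% and 6.98% of all tested transcripts were higher in layer A against layers B and C. Foxo1, a transcription factor that AKT keeps out of the nucleus, averaged 41.3 ± 16.7, 19 ± 3.44 and 9.39 ± 2.86 CPM in layers A, B and C (SD, n = 3). The edgeR adjusted p was 0.0441 against layer B and 0.00356 against layer C. The first was 0.0533 to 0.178 without layer A replicate 1 or 2, any layer B replicate or layer C replicate 2. Foxo4, Pik3cb and Akt2 had the next smallest p-values of the list and did not pass in any pair of layers, although Foxo4 did without layer C replicate 2 against layer B (0.0326) and without layer B replicate 3 against layer C (0.0304).

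Several lists of cell type markers, though not all, were higher in layer A. All 12 meningeal fibroblast markers that were tested, of 15, were higher in layer A than in each other layer. The list summed to 51.6 to 165.5, 1.42 to 7.99 and 4.54 to 7.01 CPM in layers A, B and C. Ogn, the first of that list, averaged 13.5, 0.103 and 0.211 CPM. All 12 astrocyte markers were higher in layer A in both comparisons, with sums in layers A, B and C of 5121 to 10768, 737.0 to 1231 and 1271 to 1752 CPM. Of 12 endothelial markers, 11 exceeded layer B in layer A and 10 exceeded layer C. Their sums were 130 to 157, 10.2 to 24.4 and 18.9 to 30.6 CPM in layers A, B and C.

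Pericyte and smooth muscle markers summed to 248 to 401, 18.2 to 62.4 and 51.1 to 73.3 CPM in layers A, B and C, and 9 of 10 were higher in layer A against layer B and 8 against layer C. Microglia markers summed to 154 to 188, 23.6 to 63.6 and 52.6 to 75.1 CPM, with 8 of 10 higher in layer A against layer B and 7 against layer C. Of 6 oligodendrocyte precursor markers, 6 exceeded layer B in layer A and 2 exceeded layer C, with sums of 90.7 to 138, 18.0 to 33.4 and 41.3 to 58.6 CPM in layers A, B and C. Of 7 choroid plexus markers 1 was at 0 in all samples, and the sum was 0.383 to 1.61 CPM in the 9 samples. Against layer C, these counts fell most without layer C replicate 1, to 9 for meningeal, 9 for astrocyte, 7 for endothelial, 3 for pericyte, 0 for microglia and 0 for oligodendrocyte precursor markers. Microglia markers called there numbered 1 without layer A replicate 1, layer A replicate 2 or layer C replicate 2 and 3 without layer A replicate 3.

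Neuronal and oligodendrocyte markers did not show one direction. Of 8 glutamatergic markers, 1 was higher and 3 were lower in layer A against layer B, and 1 was higher and 4 were lower against layer C. Their summed level was nonetheless higher in all layer A samples, at 2333 to 4231 CPM. It was 1159 to 1256 CPM in layer B and 1141 to 1676 CPM in layer C. A sum is weighted to the most abundant markers, and the median log2 fold change of the 8 was -1.08 over layer B and -0.99 over layer C. Of 9 GABAergic markers, 1 was higher against layer B and 2 were lower against layer C, or 4 and 4 without layer B replicate 3. Over the fits without 1 library, 0 to 4 were higher and 0 to 2 lower against layer B. Against layer C, 0 to 4 were lower. Of 9 oligodendrocyte markers, 2 were higher against layer B, or 7 without layer B replicate 3, and 0 against layer C. The part of these cell types in the Igf2, Igfbp2 and Igfbp5 differences was not tested.

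In layer B replicate 3, meningeal markers summed to 7.99 CPM against 1.42 and 1.55 in replicates 1 and 2. GABAergic neuron markers summed to 304.8 CPM against 63.1 and 58.8, and oligodendrocyte markers to 237.8 CPM against 47.4 and 50.4. Layer C sums were 4.54 to 7.01 (meningeal), 187.7 to 317.3 (GABAergic) and 154.7 to 539.8 CPM (oligodendrocyte). Glutamatergic neuron markers summed to 1141 to 1676 CPM there. In layer B replicate 3 they summed to 1159 CPM, against 1189 and 1256 CPM in replicates 1 and 2. Igf1, Igf2, Igfbp2, Igfbp3, Igfbp4, Igfbp6 and Igfbp7 were higher and Igf1r, Igf2r and Igfbp5 lower in that library than in the other layer B replicates. The part of the marker differences in these values was not tested.

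**Figure D5:**
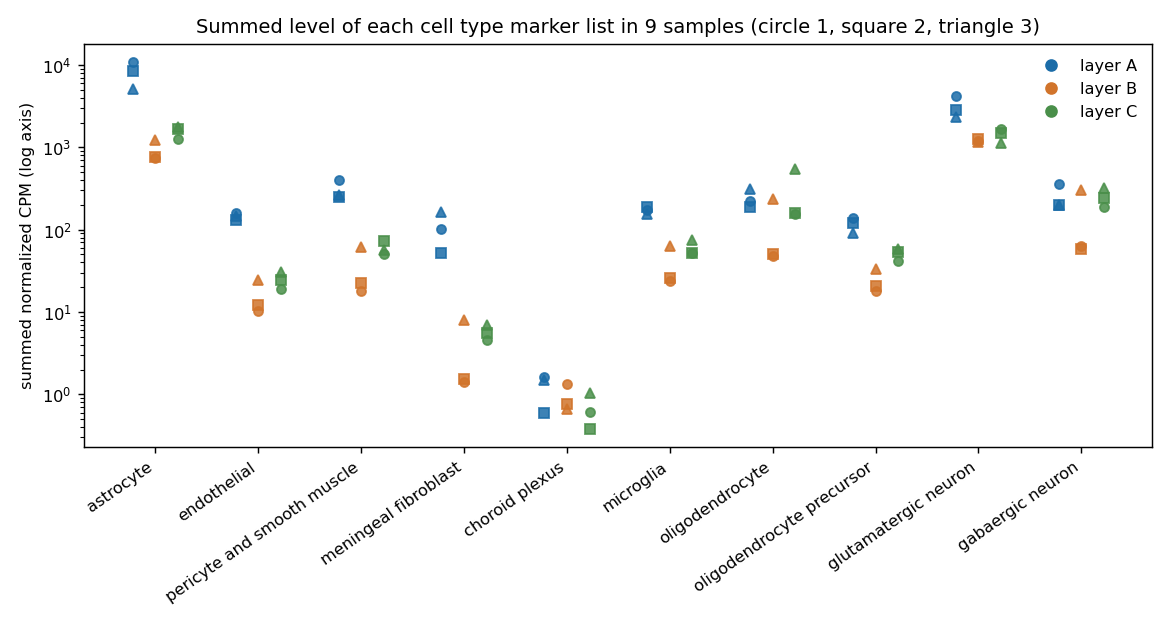
Summed normalized CPM (vertical log axis) of each list of cell type markers in the 9 samples; colours are layers, and circles, squares and triangles are replicates 1, 2 and 3. The meningeal fibroblast, astrocyte, endothelial, pericyte, microglia, oligodendrocyte precursor and glutamatergic neuron sums of all layer A samples exceed those of all other samples. Layer B replicate 3 lies above replicates 1 and 2 in each of these except the glutamatergic sum, where it lies below them. Of the 8 glutamatergic markers, only 1 was called higher in layer A against each other layer.

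Among 6576 genes averaging at least 5 CPM, those whose log2 CPM followed each family member most closely over the 9 samples were listed by Pearson's r, as a description. Because the points share libraries and fall into layers, high values are common. Igf2 was followed by Rsu1, Slc22a8 and Aldh1l1 (r of 0.992 to 0.99). Of these, Slc22a8 is an organic anion transporter of brain barriers and Aldh1l1 is on the list of astrocyte markers. Igfbp5 was followed by Pou2f1, Hip1 and Hadha (0.983 to 0.972), and Igfbp2 by Kifc2, S100a16 and Fbxo2 (0.99 to 0.947). Igfbp3 was followed by Oat, Syf2 and Gfm2 (0.991 to 0.978), and Igfbp7 by Use1, Mbd2 and Laptm4a (0.945 to 0.939).

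Igfbp4 was followed by Pbx3, Hs3st4 and Coro2a (0.927 to 0.923), and Igfbp6 by Bcl7b, Commd4 and Cant1 (0.967 to 0.932). Igf1 was followed by Ddx21, Cxadr and Srsf1 (0.957 to 0.937). The genes nearest to Igf1r were Zfyve26, Lrp1 and Fbf1 (0.954 to 0.936), and those nearest to Igf2r were Soga3, Tenm2 and Syvn1 (0.956 to 0.946).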

How the data were processed

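Laser-captured layers A, B and C of mouse piriform cortex were measured in 9 samples, 3 per layer. RNA was amplified (Ovation system), strand non-specific libraries were sequenced as paired ends, and reads were aligned to mm10 with Bowtie. The authors deposited raw counts per Ensembl transcript, without normalization. HTSeq 0.5.3 and bcl2fastq 1.8.4 appear in the submitters' processing notes without a stated role. The Ensembl release and the handling of reads shared by transcripts are not given in the sources used here, so isoforms that share exons cannot be separated.

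Of 95533 transcripts, 82779 (86.6%) were found in GENCODE M21 (GRCm38). Transcripts reaching 10 counts in 3 or more samples were scaled by TMM and tested by edgeR 4.0.16 quasi-likelihood F-tests in R 4.3.3 on all 9 samples, with Benjamini-Hochberg adjustment over the 56416 tested and a threshold of 0.05. The script was tested on simulated counts. The standard error is the log2 fold change over the square root of F. Depth is in the report, and 3 counts were taken as the floor, for counting error only. Alternatives were other scalings, DESeq2 1.42.0, other filters, the 6 samples compared, a replicate block, sums by gene, other transcripts and each sample left out.

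The family, gene lists and naming rule were chosen with earlier results of these data known. Named were all members, the 3 closest genes of each by correlation (log2 CPM with 0.5 added), up to 4 genes of each pathway list by smallest p and Insr, and the first markers of the marker lists. Promoter windows came from RefSeq tables (all 10 genes matched).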

Additional observations from a re-analysis of the deposited data

How the results depend on the processing

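Igf2 and Igfbp5 kept their direction and passed in both comparisons of layer A under all alternatives that gave a value, as did Igfbp2 except in the fits without 1 library named in the report. A minimum of 10 counts in all 9 samples removed Igfbp2, which had 9 counts in layer C replicate 2, and Igfbp6 from the test. With only the 6 samples compared, Igfbp7 also passed between layers A and C (adjusted p 0.0147). The lowest counts of a member in a library were 7 (Igfbp6) and 9 (Igfbp2).

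Called transcripts numbered 9329 between layers A and B, 6389 between A and C, 0 between B and C and 8061 for any difference. With counts summed by gene these were 4918, 3637, 5 and 4388, and with the most abundant transcript of each gene 5010, 3752, 5 and 4504, where fewer features were tested. Between layers B and C, DESeq2 called 124 transcripts and no filter gave 10. Leaving out 1 library gave 5570 to 11337, 1369 to 9740, 0 to 17 and 4070 to 11312. The lowest came without layer A replicate 1 (first and last), layer C replicate 1 (second) and the highest for layers A and C without layer B replicate 3; the cause was not tested. Members called ranged from 2 to 6 between layers A and B and from 2 to 6 between A and C, highest without layer B replicate 3, and were 0 between B and C.

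The fit with the replicate block called 9184, 6384, 0 and 7903 transcripts and the same numbers of members, 3, 3 and 0. The numbers share no stated animal or batch. The deviations of same-numbered samples correlated between -0.216 and 0.271, over 0.1 in 5 of 9 pairs, and 5 of 9 samples correlated best with their own number.

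One further fit, chosen after seeing the data, left out layer A replicate 1, layer B replicate 3 and layer C replicate 2 together, after ratios among transcripts of the members had been looked at. The same kind of ratio over 4007 genes later set only layer B replicate 3 apart, so the choice of the other libraries has no basis beyond the members themselves, and nothing in the report rests on this fit. It called 11917, 8721, 543 and 11257 transcripts and 7, 5 and 1 members, the last being Igf2, lower in layer B than in C.

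Some values that had not passed changed sign. Igfbp6 between layers A and B went to 0.46 without layer B replicate 3 and 0.86 without the 3 libraries. Over the fits without 1 library, its value for A over C ranged from -0.50 (without layer A replicate 3) to 0.96. Between layers B and C the corresponding range was -0.25 to 0.38 for Igf1r (negative without layer B replicate 2 or layer C replicate 1), -0.40 to 0.87 for Igfbp2 (layer B replicate 3 or layer C replicate 2), -0.73 to 0.20 for Igfbp3 (positive without layer B replicate 1 or 2 or layer C replicate 3), -0.13 to 0.39 for Igfbp5 (layer B replicate 1) and -1.47 to 0.74 for Igfbp7 (layer B replicate 3). Igfbp7 went to -0.38 with the replicate block. Without the 3 libraries, Igfbp2, Igfbp6 and Igfbp7 were at -0.69, -0.056 and -1.33 between layers B and C. The cause was not tested.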
